A study of Mus musculus with 6 samples.

Results

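The forkhead factors are transcription factors that share a DNA-binding domain folded as a winged helix, and 10 of their genes are described here in WT and Oct6 KO epiblast-like cells (EpiLCs). The 10 are Foxp1, Foxp2 and Foxp4 of the FOXP group, Foxo1 and Foxo3 of the FOXO group, Foxk1 and Foxk2 of the FOXK group, and Foxm1, Foxj3 and Foxc1. They were taken by name, as the genes of the count table whose Ensembl identifiers carry these gene names in GENCODE release M39, and they are 10 of the 55416 genes counted and 10 of the 45 forkhead genes found in the table.

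RNA-seq compared EpiLCs of 2 genotypes, with 3 biological replicates per genotype (6 libraries). WT cells were the parental 46C mouse ES cell line, whose GFP reporter follows the neural gene Sox1, and Oct6 KO cells were 1 clone derived from it with CRISPR/Cas9, carrying a homozygous insertion of a single base in Oct6 (Pou3f1). Both were kept as naïve cells with 2i and LIF and then cultured for 48 h on fibronectin in N2B27 with 1% KSR (a serum replacement), bFGF and Activin A, at 12 and 20 ng/ml in the sample labels and at the same figures in µg/ml in the study's methods. Since the KO arm is 1 clone, the mutation and any other difference of that clone from its parent cannot be told apart. Library totals were 13202494, 10995505 and 14680930 counts for WT replicates 1 to 3, and 12468807, 13332588 and 13213843 counts for KO replicates 1 to 3.

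Forkhead factors serve different ends in early embryonic cells. FOXP proteins act mostly as repressors and bind DNA as dimers with each other, FOXO proteins are held in the cytoplasm when insulin or growth factors activate AKT, FOXK proteins recruit the SIN3 repressor complex, and FOXM1 drives the genes of mitosis. In pluripotent cells Foxp1 makes different proteins by alternative splicing, which counts summed over the gene do not separate.

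A gene is described as called where its p from the quasi-likelihood test of edgeR, after Benjamini-Hochberg adjustment over all genes tested, was below 0.1. Of 15746 genes tested, 3833 (24.3%) were called, 1969 lower (12.5%) and 1864 higher (11.8%) in KO EpiLCs, and 978 (6.21%) were called and differed by 2-fold or more.

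The targeted gene and marker genes were looked at first. Oct6 had 161, 143 and 122 CPM (counts scaled to the normalized library size) in WT replicates 1 to 3 and 127, 141 and 128 CPM across KO replicates 1 to 3, and the genotypes overlapped. A single inserted base leaves the transcript countable, and these counts therefore check no label. The 11 EpiLC markers summed to between 3320 and 3700 CPM in WT libraries and between 3340 and 3500 CPM in KO libraries, with Dnmt3b, a de novo DNA methyltransferase, as the most abundant. Of these 11, 5 were called (45.5%, where 24.3% of all genes tested were), in both directions, and 8 with a replicate block in the model. The block called more genes over all, 4764 of the 15746 tested in place of 3833, which bears on each count given with it. Otx2 (0.92), Fgf5 (0.65), Sox2 (0.42) and Sall2 (0.37) were higher and Zic2 (−1.32) was lower on the log2 scale, while Sox2 had 0.27 without KO replicate 3 and Sall2 had 0.29 without KO replicate 1, neither then being called. The 10 markers of naïve cells, Zfp42 the most abundant, summed to 230, 238 and 239 CPM across WT replicates 1 to 3. They summed to 333, 331 and 422 CPM across KO replicates 1 to 3. Of these 10, 6 were called, all higher in KO EpiLCs (60.0%, where 11.8% of all genes tested were called higher), and 7 with the block. The 6 neural markers summed to 77.5, 76.9 and 73.2 CPM in the WT libraries, against 38.4, 35.3 and 39.5 CPM in the KO libraries, nearly all from Nes and Tubb3. Each of the 3 that could be tested was called lower, where 12.5% of all genes tested were.

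Markers of other cell types had small sums, which overlapped between the genotypes for endoderm and fibroblasts but not for primitive streak and mesoderm. Between libraries with the same replicate number, the endoderm sum was higher and the fibroblast sum lower in KO each time. Those of primitive streak and mesoderm, mostly Eomes, summed to 6.57, 6.21 and 6.02 CPM for WT and to 11.1, 9.03 and 12.1 CPM for KO. Eomes (0.87 on the log2 scale), the 1 of them tested, was called higher. Those of endoderm summed to 5.15, 4.65 and 4.46 CPM for WT and to 10.9, 5.01 and 13.8 CPM for KO. Of these, 3 were tested, and Gata6 (1.35) and Pdgfra (0.94) were called higher (66.7%, where 24.3% of all genes tested were called). Without KO replicate 3 they had 1.01 and 0.80 and were not called. Pdgfra, called in 7 of 13 alternative settings, the block among them, had 0.64 without WT replicate 2. Those of fibroblasts, Dcn the most abundant, summed to 20.2, 11.1 and 12.6 CPM for WT and to 12.6, 7.41 and 7.45 CPM for KO. Thy1 (−1.22) was called lower, the 1 call among 3 tested (33.3%, beside 24.3% of all genes tested). The block called 3, beside its 4764 of all 15746 genes tested. The part of these marker differences in the forkhead values was not tested.

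Of the 10 forkhead genes, 8 had enough counts to be tested, and 1 of these 8, Foxp1, was called. That is 12.5% beside the 24.3% of all genes tested, a difference that was not tested. Foxp2 and Foxc1 did not pass the filter on low counts.

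**Figure D1:**
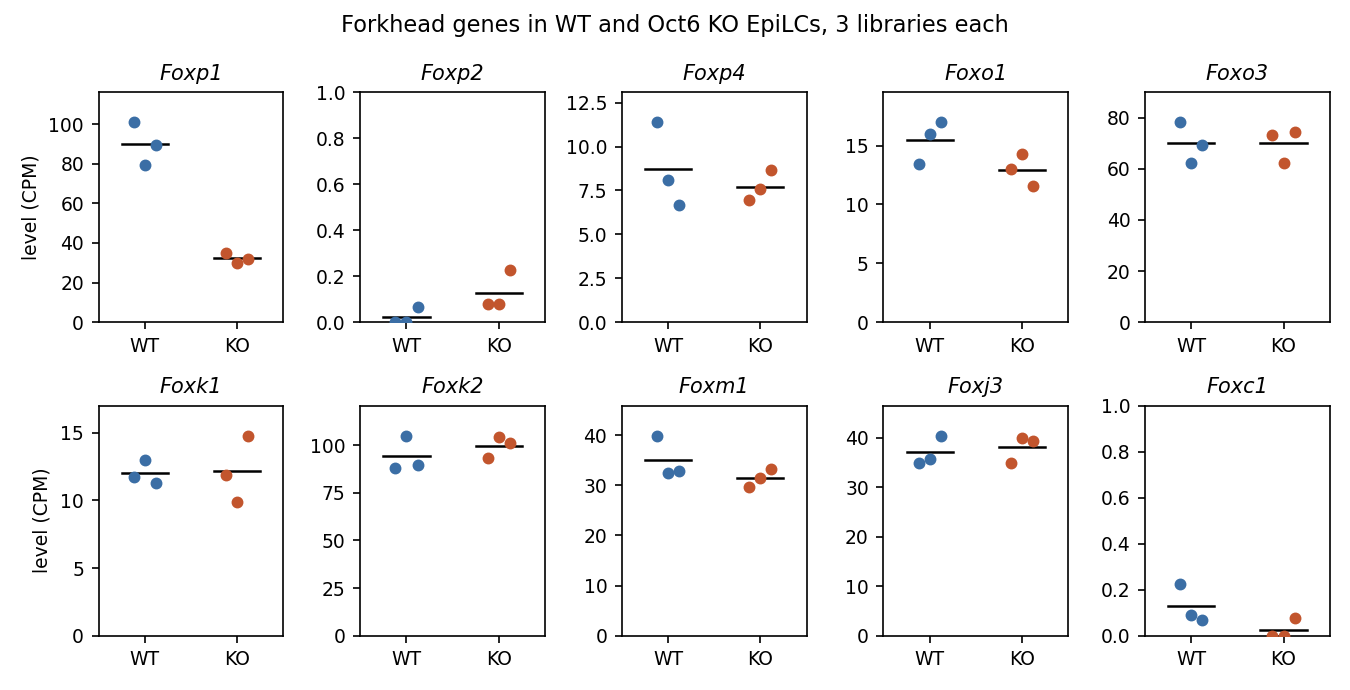
Levels of the 10 forkhead genes in CPM (vertical axes, each starting at 0) in the 3 WT and the 3 Oct6 KO libraries, with 1 point per library and a line at the group mean. The 3 KO libraries of Foxp1 lie between 30.1 and 34.8 CPM, below the WT libraries at 79.1 to 101 CPM, while Foxp2 and Foxc1 stay below 1 CPM in every library.

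Foxp1, a repressor known from B cell and lung development, was the forkhead gene of the 10 that fell. It (ENSMUSG00000030067.18) lies on the minus strand of chromosome 6 of GRCm39, from 98902299 to 99499685, and had 1351, 867 and 1324 counts for WT replicates 1 to 3 against 429, 390 and 421 counts for KO replicates 1 to 3. Scaled to library size these were 101, 79.1 and 89.6 CPM in the WT libraries, against 34.8, 30.1 and 31.7 CPM in the KO libraries. The highest KO library was well under the lowest WT library, and the spread between replicates was small beside the gap. Averages stood at 89.8 ± 10.9 CPM (SD, n = 3) and 32.2 ± 2.38 CPM (SD, n = 3), so that WT EpiLCs held 2.79 times the level of KO EpiLCs. The log2 fold change was −1.48 (with standard error, SE, 0.12 and adjusted p = 9.6e-08, edgeR with Benjamini-Hochberg adjustment). In libraries from whole cultures, fewer cells with Foxp1 RNA and less Foxp1 RNA per cell cannot be told apart. The exons of Foxp1 share 300 bases with Gm20696, a gene model on the same strand that had 34 counts over the 6 libraries, against 4782 counts on Foxp1.

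RefSeq lists 3 start sites for Foxp1, and parts of the sequences before them are shown because the counts do not say from which start the counted transcripts came. Each window of 300 bases (assembly GRCm38.p6, 250 before the start and 50 after it) was matched to GRCm39, where the 250 bases before each start occurred once on chromosome 6. The runs below are read 5′ to 3′ on the minus strand, with every CG dinucleotide in capitals. Each begins 250 bases before its start and ends where an exon annotated in GENCODE begins, after 81, 233 and 85 bases. The bases next to each start are therefore not shown. They lie at chr6:99498124-99498204, chr6:99243494-99243726 and chr6:99005425-99005509 of GRCm39, which is 1.48, 256 and 494 kb from the 5′ end of the gene.
Foxp1 start 1: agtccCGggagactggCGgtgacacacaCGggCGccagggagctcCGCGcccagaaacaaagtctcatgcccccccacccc
Foxp1 start 2: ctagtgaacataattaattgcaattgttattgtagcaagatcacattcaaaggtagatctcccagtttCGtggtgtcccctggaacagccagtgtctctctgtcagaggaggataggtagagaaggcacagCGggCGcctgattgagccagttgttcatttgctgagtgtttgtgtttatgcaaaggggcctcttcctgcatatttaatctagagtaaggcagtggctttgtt
Foxp1 start 3: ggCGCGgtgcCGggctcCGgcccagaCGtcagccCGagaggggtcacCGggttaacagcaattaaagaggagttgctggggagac

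The 3 windows differed in base composition. The first held 13 CG dinucleotides in its 300 bases and 60.3% G or C, the second 5 and 48.7%, and the third, closest to the 3′ end of the gene, 44 and 75.3%. The median over all 32851 promoter windows in the same table was 7 CG dinucleotides and 52.7% G or C. The octamer ATGCAAAT, the motif that POU factors such as Oct6 bind, was searched on both strands and was found in 0 of the 9 windows of the 7 members with an entry (all but Foxp2, Foxk1 and Foxm1) and in 0 of the 16 windows of the forkhead genes tested. It was found in 570 of all 32851 windows (1.74%), so that few windows of this length hold it. Absence of these 8 letters from a window says nothing about binding by Oct6.

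Foxp1 was then read against the other genes of the proximal part of chromosome 6, taken as the 476 other genes tested that start before 100 Mb. These genes were mostly lower in KO EpiLCs, 414 of 476 having a log2 fold change below 0, with a median of −0.52 and quartiles of −0.75 and −0.27. Of them 277 were called lower (58.2%) and 16 higher, where 12.5% of all genes tested were called lower. Foxp1 lay 0.96 below the median on the log2 scale (a difference of −0.96), and 24 of the 476 genes (5.04%) had a lower log2 fold change than Foxp1. In the 3 pairs of libraries with the same replicate number, the log2 ratio of KO over WT lay between −1.53 and −1.39 for Foxp1 and at −0.48, −0.50 and −0.55 for the median of the other genes. Foxp1 was thus further down than its surroundings in each of the 3 pairs, by −1.05, −0.89 and −0.95. With the median of −0.52 taken off the KO libraries of the proximal genes as an offset, Foxp1 was still called, with a log2 fold change of −0.96 (with SE 0.11 and adjusted p = 1.2e-05, edgeR with Benjamini-Hochberg adjustment). It was not alone in this, since with the same offset 57 of the 477 proximal genes, Foxp1 among them, were called lower and 69 higher. Over all genes tested, without an offset, 12.5% were called lower and 11.8% higher, so these counts do not set the proximal genes apart. Of the 6 called neighbours given the offset, Eogt (−0.64), Arl6ip5 (−0.62) and, just inside the threshold, Eif4e3 (−0.83) stayed called. Tmf1 (−0.14), Uba3 (0.12) and Gpr27 (−0.59) were no longer called, and Tafa4 (0.74) and Tpt1-ps3 (0.50) were then called higher.

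Most genes near Foxp1 had log2 fold changes closer to 0 than its own. Within 10 Mb of Foxp1, 70 other genes were tested, with a median log2 fold change of −0.42, and 0 of the 70 were as low as Foxp1. The median was −0.45 for the 45 genes on the side of the centromere and −0.34 for the 25 on the side of the telomere. Within 2 Mb, 19 genes were tested, 9 of them called lower and 1, the processed pseudogene Gm6565 (1.60), called higher. The closest gene tested above Foxp1 was Eif4e3, a cap-binding protein, with 2.69, 3.47 and 3.04 CPM in the WT libraries, against 1.38, 1.31 and 0.903 CPM in the KO libraries. Its log2 fold change of −1.35 (with SE 0.33 and adjusted p = 0.00718, edgeR with Benjamini-Hochberg adjustment) was the lowest of these 19, and its 95% interval held the −1.48 of Foxp1. Next to it, Gpr27, an orphan receptor, had −1.11, and further on Rybp, a Polycomb subunit, had −0.44. On the other side, the closest tested was Mitf, the melanocyte factor, which had −0.38 and was not called. Beyond Mitf came Frmd4b with −0.44, not called, and Arl6ip5 with −1.14, Uba3 (a subunit of the NEDD8-activating enzyme) with −0.40, Tmf1 with −0.66 and Eogt, an O-GlcNAc transferase, with −1.16, each called. Tafa4 (0.22), Tpt1-ps3 (−0.02), Gxylt2 (0.40), Pdzrn3 (−0.25), Gm44045 (−0.50), Gm44044 (−0.55) and Gm44116 (−0.21) were not called, and Ppp4r2 (−0.56), a phosphatase subunit, and Shq1 (−0.27), which assembles H/ACA particles, were. Over the alternative settings the values of the genes not called ran from −0.65 to −0.10 for Mitf, from −0.63 to −0.23 for Frmd4b, from 0.05 to 0.40 for Tafa4, from 0.18 to 0.72 for Gxylt2, from −0.36 to −0.14 for Gm44116 and from −0.10 to 0.09 for Tpt1-ps3. Shq1 was called in 9 of 14 alternative settings and had −0.24 without KO replicate 3. Gm44045 (−0.33 without KO replicate 1 and −0.73 without KO replicate 3) and Gm44044 (−0.79 without KO replicate 2) were called in 2 settings each. The replicate block, with −0.52 and −0.57, was 1 of these for both.

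**Figure D2:**
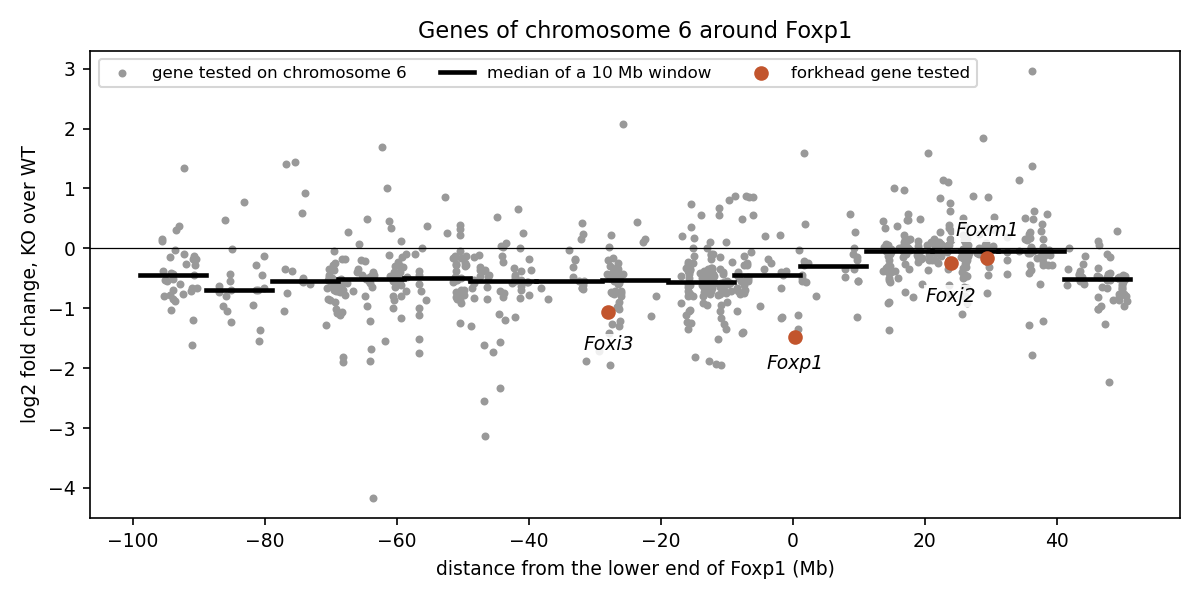
Log2 fold change of KO over WT EpiLCs (vertical axis) for each gene tested on chromosome 6, by its distance in Mb from the lower end of Foxp1 (horizontal axis), with forkhead genes in orange and black bars at the medians of 10 Mb windows. Foxp1 lies at −1.48, under the median of −0.45 of its own window and −0.30 of the next, and Foxm1 and Foxj2 lie where the medians are −0.04. The window from 140 to 150 Mb of the chromosome has a median of −0.51, as low as the proximal part.

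Foxp1 was also read beside the more abundant genes of this stretch, its own average log2 CPM being 5.94. Of the 177 other proximal genes with an average log2 CPM of at least 5, 149 were called lower (84.2%). Over all genes tested 12.5% were, a share that is not limited to abundant genes, which are called more easily. Of the 177, 1, the imprinted gene Mest, had a lower log2 fold change than Foxp1. With an average log2 CPM of at least 1 asked for, the 5 largest called decreases were those of Scrn1 (−2.33), Smyd1 (−1.94), the linker histone gene H1f10 (−1.94), Antxr1 (−1.93) and the EGF receptor ligand Tgfa (−1.88). The 3 largest called increases were those of the dynein gene Dnah6 (2.07), the growth factor gene Ptn (1.69) and Cadps2 (1.44). All 8 had mean levels below Foxp1's 89.8 CPM in WT EpiLCs, the highest being Scrn1 with 29.8 ± 1.06 CPM (SD, n = 3).

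Of the other FOXP members, Foxp4 was tested and not called, and Foxp2 could not be tested. Foxp4 (ENSMUSG00000023991.17, chromosome 17, 48178058 to 48235699), active in lung and gut epithelium, had 11.4, 8.12 and 6.70 CPM across WT replicates 1 to 3, against 6.97, 7.56 and 8.65 CPM across KO replicates 1 to 3. The genotypes overlapped, WT replicate 1 being the highest library. Its log2 fold change was −0.18 (with SE 0.21 and adjusted p = 0.631, edgeR with Benjamini-Hochberg adjustment), with a 95% interval from −0.59 to 0.23, and turned to 0.07 without WT replicate 1. Foxp2 (ENSMUSG00000029563.17, chromosome 6, 14901287 to 15441976), known from the developing brain, had 0, 0 and 1 counts in WT libraries and 1, 1 and 3 in KO libraries. These are at or under 3 counts, the number that a count of 0 allows, which corresponds to between 0.203 and 0.274 CPM, so that no fold change is given and its place in proximal chromosome 6 could not be put to use. Such limits cover counting error only.

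Per kb of exon, the level of the 4 FOXP genes together, Foxp3 of regulatory T cells included, was 8.36, 6.42 and 6.77 CPM per kb in WT replicates 1 to 3 and 3.45, 3.25 and 3.55 CPM per kb in KO replicates 1 to 3. Foxp1 made up 74.6%, 76.2% and 81.8% of it in WT EpiLCs and 62.4%, 57.3% and 55.1% in KO EpiLCs, Foxp4 nearly all of the rest. The share was lower in every KO library than in every WT library, with means of 77.6% ± 3.79 (SD, n = 3) and 58.3% ± 3.73 (SD, n = 3). An exact two-sided permutation test gave p = 0.1, the smallest value that 3 libraries against 3 allow, and so adds nothing to this separation. It took no account of the replicate numbers. The share in counts without division by length fell by 10.8 percentage points in place of 19.3, since Foxp1 has the longer exons.

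**Figure D3:**
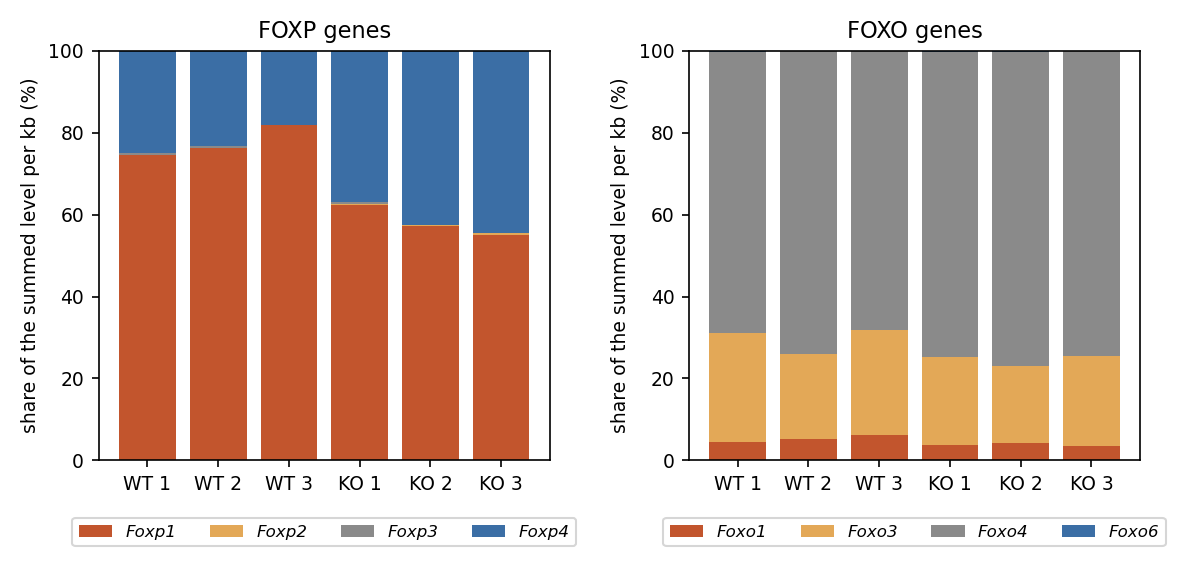
Share in % of each gene in the summed level per kb of the FOXP genes (left) and of the FOXO genes (right), with 1 stacked bar for each of the 3 WT and 3 Oct6 KO libraries. Foxp1 takes 74.6% to 81.8% of the FOXP level in WT libraries and 55.1% to 62.4% in KO libraries, and Foxo4 takes most of the FOXO level in every library.

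Foxo1 and Foxo3, which AKT keeps out of the nucleus and which otherwise turn on genes of cell cycle arrest and stress resistance, were not called. Foxo1 (ENSMUSG00000044167.7, chromosome 3, 52175757 to 52260642) had 13.4, 16 and 17.0 CPM across WT replicates 1 to 3, against 13.0, 14.3 and 11.6 CPM across KO replicates 1 to 3. The genotypes overlapped, with a log2 fold change of −0.25 (with SE 0.16 and adjusted p = 0.314, edgeR with Benjamini-Hochberg adjustment). The 40 genes tested within 5 Mb of Foxo1 had a median of −0.51. Foxo3 (ENSMUSG00000048756.12, chromosome 10, 42057837 to 42154007) had 78.3, 62.1 and 69.3 CPM in the WT libraries, against 73.3, 62.4 and 74.4 CPM in the KO libraries. Its means were 69.9 ± 8.09 and 70.0 ± 6.63 CPM (SD, n = 3 each), and the 95% interval of its log2 fold change ran from −0.22 to 0.22, around an estimate of 0.00 that lay between −0.07 and 0.09 over the alternative settings. Foxo4, on the X chromosome and outside the 10, was the most abundant FOXO gene per kb. It had 77.5, 85.9 and 71.0 CPM in the WT libraries, against 98.2, 98.1 and 96.3 CPM in the KO libraries, every KO library being above every WT library. Its log2 fold change was 0.32 (with SE 0.10 and adjusted p = 0.0288, edgeR with Benjamini-Hochberg adjustment), and without WT replicate 3 it was 0.26 and not called (adjusted p = 0.103 by the same edgeR test with Benjamini-Hochberg adjustment, in a range from 0.00927 to 0.103 over the alternatives).

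The summed FOXO level per kb was 31.9, 32.7 and 29.4 CPM per kb in WT replicates 1 to 3 and 37.2, 36.1 and 36.5 CPM per kb in KO replicates 1 to 3. Foxo1 held 4.52%, 5.27% and 6.23% of it in WT EpiLCs and 3.76%, 4.28% and 3.43% in KO EpiLCs. These shares did not overlap between the genotypes, although the level of Foxo1 itself did. The same exact two-sided permutation test gave p = 0.1, the smallest possible, and adds nothing to this separation. The sum that the shares are taken from was higher in every KO library, with means of 31.3 and 36.6 CPM per kb, and Foxo4 made up 70.2% of it in WT EpiLCs and 75.2% in KO EpiLCs on average. Foxo6 held at most 0.434% in any library.

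Genes that FOXO factors are known to activate, and the kinases upstream of FOXO, were counted from lists. Of 24 FOXO target genes, 23 were tested, 9 were called lower (39.1%, against 12.5% of all genes) and 2 higher, with a median log2 fold change of −0.16 against 0.00 over all genes tested. Gadd45b, a stress sensor, had 7.91, 13.5 and 9.67 CPM in the WT libraries, against 2.51, 2.16 and 2.93 CPM in the KO libraries, giving −2.02 on the log2 scale (with SE 0.24 and adjusted p = 1.3e-05, edgeR with Benjamini-Hochberg adjustment). Cdkn1a, the p21 inhibitor of cyclin-dependent kinases, had 25.8, 23.8 and 18.7 CPM in the WT libraries, against 13.9, 10.3 and 10 CPM in the KO libraries, with means of 22.8 and 11.4 CPM. Klf6 (−0.71), the mitophagy kinase gene Pink1 (−0.81) and Gadd45a (−0.67) were lower as well. Gadd45a lies in the proximal part of chromosome 6, where the median was −0.52. Klf2, a naïve pluripotency factor that endothelial cells and T cells express under FOXO control, went the other way, with 4.33, 3.01 and 3.65 CPM in WT EpiLCs, 11.4, 9.64 and 15.2 CPM in the KO libraries and a log2 fold change of 1.71. Klf2 stands in the list of naïve markers too.

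Upstream of FOXO, 7 of 21 genes tested were called (33.3%, beside 24.3% of all genes tested), 4 higher and 3 lower, with a median log2 fold change of 0.09. Without KO replicate 2 the count was 4. Higher in KO EpiLCs were Pik3r1, the regulatory subunit of PI3K (0.72), Sgk1, a kinase related to AKT (0.57), and Usp7, a deubiquitinase of FOXO proteins (0.77). Usp7 lies on chromosome 16, whose 471 genes tested had a median log2 fold change of 0.55. The other gene called higher was Sgk3, with 0.35 (adjusted p = 0.0616, edgeR with Benjamini-Hochberg adjustment). Lower were the receptors Igf1r (−0.48) and Insr (−0.37) and the kinase Akt1 (−0.36), the last of which had 51.1, 53.5 and 45.3 CPM in the WT libraries, against 39.5, 36.6 and 40.5 CPM in the KO libraries. Insr was called in 11 of 14 alternative settings (−0.29 without KO replicate 1) and Akt1 in 12 (−0.31 without WT replicate 2). Insr stands in the list of FOXO targets too and is counted in both.

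**Figure D4:**
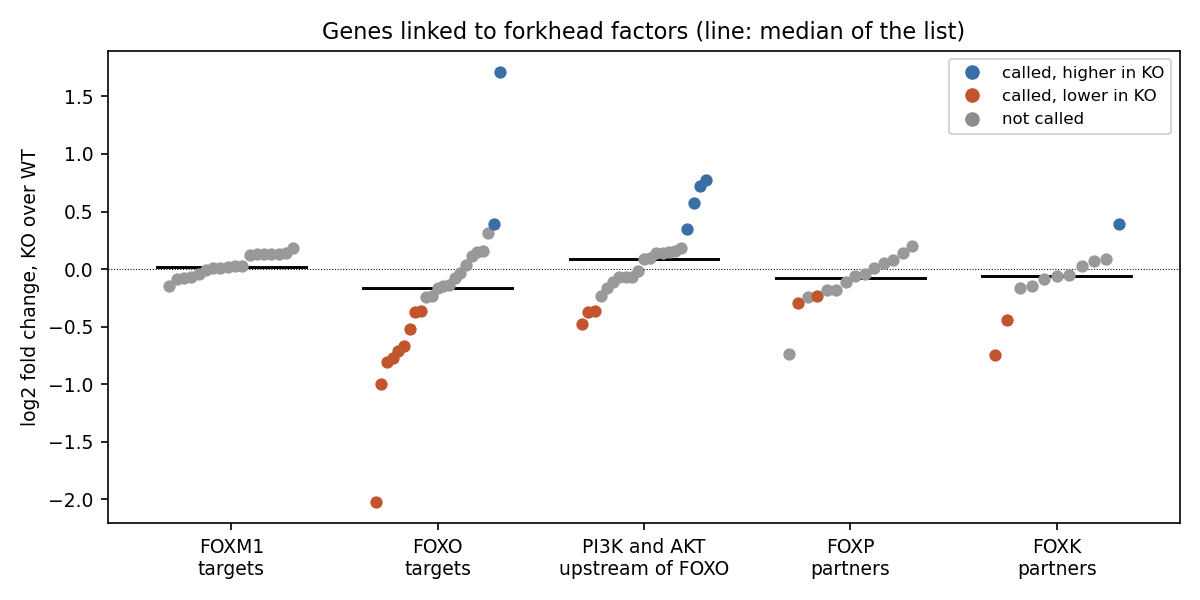
Log2 fold change of KO over WT EpiLCs (vertical axis) for each gene tested in 5 lists linked to forkhead factors, in order of size within a list, with called genes in blue (higher) or orange (lower) and a line at the median. The FOXM1 targets keep close to 0, and the FOXO targets reach from −2.02 for Gadd45b to 1.71 for Klf2.

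Foxk1 and Foxk2, which repress autophagy genes and promote glycolysis, were not called. Foxk2 (ENSMUSG00000039275.10, chromosome 11, 121150786 to 121201060) had 87.8, 105 and 89.4 CPM across WT replicates 1 to 3, against 93.0, 104 and 101 CPM across KO replicates 1 to 3, with overlapping genotypes and a 95% interval of the log2 fold change from −0.12 to 0.28 (estimates of 0.03 to 0.17 over the alternative settings). Its exons share 222 bases with Cybc1 on the opposite strand. The kit marked strand, but whether counting used it is not given in the sources used here. Foxk1 (ENSMUSG00000056493.10, chromosome 5, 142387240 to 142447766) had 11.7, 13.0 and 11.3 CPM in the WT libraries, against 11.9, 9.87 and 14.8 CPM in the KO libraries, KO replicates 2 and 3 being the lowest and the highest of the 6 libraries. The interval of its log2 fold change, −0.32 to 0.37, was wider, with estimates of −0.14 to 0.16 over those settings. Of 11 partners of FOXK tested, 3 were called (27.3%, near the 24.3% of all genes tested): Srf, the serum response factor (−0.75), and Sin3b, a corepressor (−0.44), were lower and Sap30, a subunit of the SIN3 complex (0.39), was higher in KO EpiLCs. Of 14 partners of FOXP tested, 2 were called, both lower (14.3%), where 24.3% of all genes tested were called and 12.5% were called lower. The 2 were the corepressor Ctbp1 (−0.29) and the remodeller Chd4 (−0.23), which lies on chromosome 6 beyond the proximal part. The count was 0 without WT replicate 1, 0 without KO replicate 1 and 3 with a replicate block. Chd4 was called in 7 of 14 alternative settings (−0.21 without KO replicate 1), Ctbp1 in 11 (−0.21 without WT replicate 1) and Sap30 in 11 (0.24 without WT replicate 1).

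Foxm1, the activator of mitotic genes, also lies on chromosome 6, but beyond the proximal part (ENSMUSG00000001517.15, 128339518 to 128353147). It had 39.9, 32.4 and 32.9 CPM across WT replicates 1 to 3, against 29.7, 31.4 and 33.2 CPM across KO replicates 1 to 3. WT replicate 1 was the highest library, and the others lay between 29.7 and 33.2 CPM. The log2 fold change was −0.16 (with SE 0.12 and adjusted p = 0.422, edgeR with Benjamini-Hochberg adjustment), beside a median of −0.08 for the 72 genes tested within 5 Mb, and was −0.05 without WT replicate 1. Its exons share 382 bases with Rhno1 on the opposite strand, which had 5420 counts over the 6 libraries against 2591 on Foxm1, so that without strand their reads cannot be told apart there. Of 18 FOXM1 targets, all tested, 0 were called by edgeR (beside 24.3% of all genes tested) and 0 by DESeq2, 0 had an unadjusted p below 0.05, and 1 was called with a replicate block and 1 without WT replicate 3. Their median log2 fold change was 0.02.

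Foxj3, a broadly expressed activator, and Foxc1, a factor of mesenchyme and the eye, complete the 10. Foxj3 (ENSMUSG00000032998.17, chromosome 4, 119394201 to 119486319) had 35.0, 35.7 and 40.5 CPM across WT replicates 1 to 3, against 35.0, 40.0 and 39.3 CPM across KO replicates 1 to 3, giving 0.04 on the log2 scale with a 95% interval from −0.19 to 0.27 (0.00 to 0.11 over the alternative settings). Its exons share 1036 bases with Frg2f1 on the opposite strand, which had 125 counts against 2931 on Foxj3. Foxc1 (ENSMUSG00000050295.5, chromosome 13, 31990616 to 31996459) had 3, 1 and 1 counts in WT libraries and 0, 0 and 1 in KO libraries, all at or under the limit of 3 counts, and no fold change is given.

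Compared per kb of exon, the order of the 10 genes in WT EpiLCs began with Foxk2 at 14.5 ± 1.47 CPM per kb (SD, n = 3), followed by Foxo3 at 7.57, Foxm1 at 5.63, Foxp1 at 5.56 and Foxj3 at 3.11. Foxo1 (1.67), Foxp4 (1.60) and Foxk1 (1.58) came next and could not be ranked, since their libraries overlapped, as did those of Foxm1 and Foxp1. In KO EpiLCs Foxp1, at 1.99 ± 0.147 CPM per kb (SD, n = 3), stood behind Foxj3 (3.19) and overlapped with Foxk1 (1.61). The first 3 there were Foxk2 (15.3), Foxo3 (7.59) and Foxm1 (5.05). Exon length was taken over all annotated transcripts, which lowers the level of genes with many of them, such as Foxp1.

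Over all 45 forkhead genes, 21 were tested and 8 of these were called (38.1%, against 24.3% of all genes tested), 5 lower and 3 higher. Besides Foxp1 and Foxo4 these were Foxa3, Foxd3, Foxh1, Foxi3, Foxn2 and Foxn4. The other 24 did not pass the filter on low counts. The most abundant forkhead gene per kb was Foxh1 (chromosome 15, 76552028 to 76554148), which brings SMAD proteins to DNA under Nodal and Activin, with 80.8, 80.8 and 71.8 CPM in the WT libraries, against 59.4, 65.9 and 58.7 CPM in the KO libraries. Its log2 fold change was −0.34 (with SE 0.10 and adjusted p = 0.0239, edgeR with Benjamini-Hochberg adjustment), with all KO libraries below all WT libraries. Its exons share 380 bases with Ppp1r16a and 375 with Kifc2, both on the opposite strand. These had 2242 and 127 counts over the 6 libraries against 5397 on Foxh1, so that without strand their reads cannot be told apart there.

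Foxd3 (chromosome 4, 99544536 to 99546859), a factor needed by early epiblast and ES cells, had 19.8, 22.4 and 21.4 CPM across WT replicates 1 to 3, against 26.0, 30.5 and 49.1 CPM across KO replicates 1 to 3. KO replicate 3 was far above the other 2 KO libraries, though each was above every WT library. The exons of Foxd3 share 92 bases with Gm12688 on the opposite strand, which had 338 counts against 2195 on Foxd3. The log2 fold change of Foxd3 was 0.74 (with SE 0.18 and adjusted p = 0.00621, edgeR with Benjamini-Hochberg adjustment) and 0.42 without KO replicate 3 (adjusted p = 0.0683 by the same edgeR test with Benjamini-Hochberg adjustment, in a range from 5.9e-06 to 0.0683 over the alternatives). Foxn2 (chromosome 17) had 76.8, 86.1 and 84.4 CPM in the WT libraries, against 99.5, 109 and 98.7 CPM in the KO libraries, a log2 fold change of 0.31 that was no longer called without WT replicate 1 (0.26) or without KO replicate 2 (0.27). Foxn3 (chromosome 12), its relative among the 5 forkhead genes outside the 10 with the highest level per kb, had means of 84.8 ± 4.56 and 84.4 ± 5.62 CPM (SD, n = 3 each).

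Foxn4 and Foxi3, factors of neural and ectodermal development, were called lower by a similar amount to each other. Foxn4 (chromosome 5, 114392225 to 114411899), which directs interneurons of the spinal cord and retinal cells, had 21.0, 16 and 17.0 CPM in the WT libraries, against 10.9, 6.94 and 8.65 CPM in the KO libraries. Its log2 fold change was −1.03 (with SE 0.18 and adjusted p = 4.7e-04, edgeR with Benjamini-Hochberg adjustment), while the median of the 1025 other genes tested on chromosome 5 was −0.01. Foxi3 (chromosome 6, 70933515 to 70939673), a factor of the ear and of ectodermal placodes, had 10.2, 7.21 and 9.27 CPM in the WT libraries, against 3.97, 3.55 and 5.27 CPM in the KO libraries, giving −1.06 on the log2 scale (with SE 0.22 and adjusted p = 0.00186, edgeR with Benjamini-Hochberg adjustment). It lies in the proximal part of chromosome 6 like Foxp1. With the shift of that part taken off, a setting added after seeing the data, Foxi3 had −0.54 and just missed the threshold, where Foxp1 kept its call. Foxa3 (chromosome 7), a pioneer factor of endoderm and liver, was rare, with 24, 24 and 28 counts in WT libraries and 14, 4 and 8 in KO libraries, and its log2 fold change of −1.52 had a standard error of 0.44. Foxj1, Foxj2, Foxq1, Foxr1 and Foxr2 were tested and not called.

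**Figure D5:**
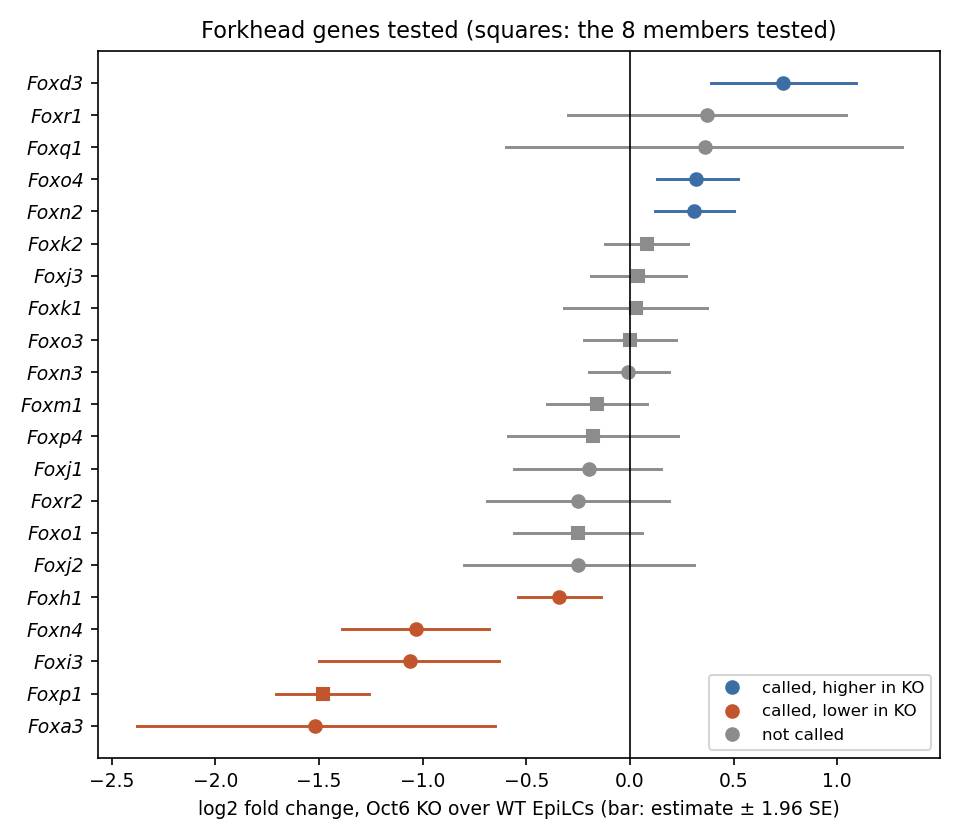
Log2 fold change of KO over WT EpiLCs (horizontal axis) for the 21 forkhead genes tested, with the 95% interval from its standard error as a bar. Squares mark the 8 tested genes among the 10, and of these Foxp1, at −1.48, is called, while 7 other forkhead genes (circles) are called, from Foxa3 at −1.52 to Foxd3 at 0.74.

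The genes whose levels followed Foxp1 most closely across the 6 libraries were found by Pearson correlation of log2 CPM with Foxp1 among 9859 other genes with an average log2 CPM of at least 3. The 5 highest were Supt20 on chromosome 3 (r = 0.997), a subunit of the SAGA complex, Prph (r = 0.995), a neural intermediate filament, Inpp5d (r = 0.992), a phosphatase of the PI3K pathway, Mest (r = 0.992) and Eid1 (r = 0.992). Of these, Mest lies in the proximal part of chromosome 6. The 3 lowest were Chaf1b, a chromatin assembly factor (r = −0.998), Slc25a1, the mitochondrial citrate carrier (r = −0.997), and Wdr53 (r = −0.997), and these 3 lie on chromosome 16. The libraries fall into 2 genotypes, so that these values mostly rank genes by how cleanly they separate WT from KO EpiLCs, and they are given as a description of 6 libraries.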

How the data were processed

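Total RNA was sequenced after removal of ribosomal RNA with a stranded kit. According to the study's methods and the submitters' processing notes, the authors checked reads with FastQC, trimmed them with Fastp and mapped them to GRCm39 (mm39) with STAR, and deposited raw gene counts without normalization. The versions, the annotation release and the strand setting are not given in the sources used here. Identifiers were matched to GENCODE M39 on GRCm39 (54749 of 55416 found).

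Counts were tested in R 4.3.3 with edgeR 4.0.16 (TMM, filterByExpr with a minimum count of 10, quasi-likelihood test, genotype as the only term, Benjamini-Hochberg adjustment over 15746 genes), after the steps had been tested on simulated data. Standard errors come from the F statistic. Levels are CPM on the TMM library size, divided by the union of exons for values per kb. The biological coefficient of variation was 11.7%. Alternatives were DESeq2 1.42.0, other normalizations and filters, a replicate block, robust dispersion and each library left out.

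The members, the lists and the limit of 100 Mb were chosen with earlier results of these data known. The genes named were the 10 members, forkhead genes called or among the 5 highest per kb, Oct6, genes tested within 2 Mb of Foxp1, the 5 largest decreases and 3 largest increases in proximal chromosome 6, up to 6 called genes of each list, and the genes most like Foxp1. The most abundant marker of each marker list is named too, and so is Sgk3, to complete the genes called upstream of FOXO.

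Libraries of a group were not copies, with a chi-square per degree of freedom between 6.78 and 11.5. The series' design calls the replicates paired, and deviations from the group means over 13878 genes correlated at 0.220, 0.268 and 0.113 between libraries with the same number and at −0.199 to −0.030 between the others.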

Additional observations from a re-analysis of the deposited data

How the results depend on the processing

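Foxp1 stayed lower in KO EpiLCs and called in all 15 alternative settings, its log2 fold change running from −1.56 to −0.96, the last with the shift of proximal chromosome 6 taken off. With a replicate block in the model it was −1.48 (adjusted p = 5.6e-12, edgeR with Benjamini-Hochberg adjustment, in a range from 1.1e-32 to 1.2e-05), 8 forkhead genes were called, and 4764 genes in all in place of 3833. The block changed no call among the forkhead genes, but called Gm44045 and Gm44044 near Foxp1 and 1 FOXM1 target, and took the FOXP partners called from 2 to 3 and the genes upstream of FOXO from 7 to 8. EpiLC markers called went from 5 to 8, naïve markers from 6 to 7 and fibroblast markers from 1 to 3, beside the rise over all genes tested. The same FOXM1 count of 1 came without WT replicate 3. Leaving out each library gave between 3058 and 3734 called genes and 7 or 8 called forkhead genes. Asking also for a 2-fold difference left 978 of all genes tested (6.21%) and 4 of the 21 forkhead genes tested. These were Foxp1 and Foxi3 of proximal chromosome 6, Foxn4 and the rare Foxa3.

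The difference between Foxp1 and its surroundings moved somewhat with the genes taken as proximal. It was −0.96 for genes before 100 Mb, −0.95 before 90 Mb, and −0.95 for those before 100 Mb with an average log2 CPM of at least 5. The median was −0.42 within 10 Mb of Foxp1 and −0.44 within 2 Mb, and Foxp1 lay at −1.06 and −1.05 from these. The Foxp1 share of the FOXP level changed by −10.8 percentage points in counts alone, in which length by construction has no part.

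Forkhead genes that were not called turned in sign as follows. Foxo3 went to −0.02 with library totals alone, to 0.00 without a filter (a fitted value just below 0), and between −0.07 and 0.09 over all settings. With each library left out, Foxp4 ran from −0.34 to 0.07, Foxk1 from −0.14 to 0.16, Foxj3 from 0.00 to 0.11, Foxn3 from −0.05 to 0.04 and, near Foxp1, Tpt1-ps3 from −0.10 to 0.09. The cause of these changes was not tested. Foxp2 and Foxc1 have too few counts for any setting to inform on them, and Foxp2 with the shift taken off was not run.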
